A study of Mus musculus with 2 samples.

Results

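Mir221 and Mir222 are neighbouring microRNA (miRNA) genes on the mouse X chromosome, and they are 2 of the 2202 miRNA genes counted by small-RNA sequencing of the left cerebral cortex. They were found by their GENCODE M21 names, and both were measured in each library. They were chosen by their own-strand counts, with the lower level of Mir222 in replicate 2 already known, so their levels and their difference between libraries are given as a description, with no test. The tissue came from 2 male B6CASTF1/J mice aged 25 days, first-generation hybrids between C57BL/6J and the wild-derived strain CAST/EiJ. They form 1 group of 2 biological replicates in the labels, with 1 library of total RNA from each of 2 separately numbered males and no treatment. Sons of this cross carry a single X chromosome. By the convention that names the maternal strain first, it is that of C57BL/6J, the strain of the mm10 reference.

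A miRNA is cut from a hairpin in a longer transcript, loaded into an Argonaute protein, and pairs with mRNAs chiefly through its seed, bases 2 to 8 from the 5′ end. miRNAs of 1 seed can therefore share targets. The best known targets of miR-221 and miR-222, first described in human cells, are the mRNAs of the cell-cycle inhibitors CDKN1B and CDKN1C and of the receptor KIT. Both miRNAs are known to promote proliferation of vascular smooth muscle, to restrain KIT in endothelial cells, and to be raised in human glioma.

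The mature sequences show what the members share and where they part. RefSeq (GRCm38.p6) lists both arms of the Mir221 hairpin and the 3p arm of Mir222. They are printed 5′ to 3′ with the seed in capitals, followed by the other mouse miRNA that the table lists with the same seed:
mmu-miR-221-3p: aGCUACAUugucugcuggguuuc
mmu-miR-222-3p: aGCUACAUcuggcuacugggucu
mmu-miR-1928: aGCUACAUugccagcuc
mmu-miR-221-5p: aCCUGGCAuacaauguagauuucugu

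Both 3p arms have the seed GCUACAU, whose match in a target mRNA reads AUGUAGC. The arms are 23 bases long and identical over the first 8 bases. Compared base by base from the 5′ end they are identical at 11 of 23 positions, and the first difference from miR-221-3p to miR-222-3p is U9C. Past the seed their longest common run is CUGGGU, at bases 15 to 20 of miR-221-3p and bases 16 to 21 of miR-222-3p. GC content was 47.8% for miR-221-3p and 52.2% for miR-222-3p. The seed of miR-221-5p was found in no other mature miRNA of the table. Mir1928, on chromosome 1, is listed with a mature miRNA of 17 bases, of which the first 10 equal those of miR-221-3p. It had 0 counts on its own strand in either library, and the floor of 3 counts that 0 allows stands at 1.26 CPM for replicate 1, with 0.675 CPM for replicate 2. All counts of genes listed with this seed were thus those of Mir221 and Mir222.

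The hairpins that the counts refer to are shown with the listed mature arms in capitals:
Mir221 hairpin: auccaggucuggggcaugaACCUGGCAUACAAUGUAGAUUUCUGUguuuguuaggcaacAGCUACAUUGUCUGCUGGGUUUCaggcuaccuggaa
Mir222 hairpin: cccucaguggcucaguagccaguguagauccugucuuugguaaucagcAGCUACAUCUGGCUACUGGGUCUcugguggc

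Mir221 (ENSMUSG00000065422.1) spans 95 bases at chrX:19146294-19146388 and Mir222 (ENSMUSG00000065471.1) spans 79 bases at chrX:19146893-19146971, both on the minus strand of mm10. Mir222 is the upstream member, and 504 bases separate the hairpins. No other annotated gene overlapped either hairpin on either strand, so both are intergenic in GENCODE M21. The nearest upstream gene was Gm14636, a non-coding transcript on the same strand that ends 10009 bases from Mir222. The predicted minimum free energy was -42.8 kcal/mol for the Mir221 hairpin and -40.7 kcal/mol for that of Mir222. The files count reads per hairpin, so the 5p and 3p arms cannot be told apart in any value below. The longest run that the Mir221 hairpin shared with any other annotated miRNA gene, on either strand, was 13 bases (with Mir7213), and for Mir222 it was 12 bases (with Mir1251). None of the 15 stretches of 18 bases in the listed mature arms of Mir221, and none of the 6 in that of Mir222, occurred in any other GENCODE transcript. Over the whole hairpins, 2 of 78 such stretches of Mir221 and 2 of 62 of Mir222 did occur in another transcript. The 5p arm of Mir222 is not listed, so it was not searched as an arm. The rest of the genome was not searched. The counts leave out every read that aligned to more than 1 place.

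The libraries held 2388379 own-strand miRNA counts in replicate 1 and 4447390 in replicate 2, and levels are in counts per 1000000 of these (CPM). At least 10 counts in each library were found for 392 genes, called measured here. The tissue label was set against its marker miRNAs. The neuronal markers summed to 77652 and 63571 CPM, nearly all from Mir132, Mir128-1 and Mir137. Mir124a-1, Mir124a-2 and Mir124a-3 had 9, 0 and 1 counts in replicate 1 and 9, 1 and 8 in replicate 2. Mir9-1, Mir9-2 and Mir9-3 stood at 2.92 to 79.1 CPM. Both families are near-identical copies, so these levels are uncertain. Markers of liver, pancreas, red cells, and heart and skeletal muscle each summed to 20.9 to 119 CPM, and 3 of the 6 muscle markers were at 0 in both libraries. Those 3, Mir1a-1, Mir133a-1 and Mir133a-2, are numbered copies. Reads that align to more than 1 place are left out, so their 0 carries little weight. Mir204, the marker of choroid plexus, stood higher, at 507 and 718 CPM. Another muscle marker, Mir206, had 32 and 99 counts. Markers of oligodendrocytes summed to 2726 and 3556 CPM. Those of microglia and white blood cells summed to 83.7 and 90.4 CPM, inside the range of 20.9 to 119 CPM above. That range therefore does not separate markers foreign to cortex from those of its own cells.

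Mir221 was the more abundant member in both libraries, and both members were lower in replicate 2. Mir221 had 14207 counts in replicate 1 and 15199 in replicate 2, which are 5948 and 3418 CPM. Mir222 had 7811 and 3889 counts, which are 3270.4 and 874 CPM. The raw counts of Mir221 were therefore close to equal (1.07 times), while the library total of replicate 2 was 1.86 times that of replicate 1, and the raw counts of Mir222 in replicate 2 were 0.498 times those of replicate 1. Over the libraries the mean was 4683 ± 1790 CPM for Mir221 and 2072 ± 1694 CPM for Mir222 (SD, n = 2). The ranges of the members over the libraries did not overlap, but the lower Mir221 value (3418 CPM) and the higher Mir222 value (3270.4 CPM) were close. A small-RNA read spans a whole mature miRNA, so counts were not divided by gene length. How efficiently each sequence is captured in a library is not known, so the difference between the members is one of counts.

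As a share of all counts, Mir221 held 0.595% of replicate 1 (exact Clopper-Pearson 95% interval 0.585 to 0.605%) and 0.342% of replicate 2 (0.336 to 0.347%). Mir222 held 0.327% (0.320 to 0.334%) and 0.0874% (0.0847 to 0.0902%). Intervals here and below hold for counting error alone, because they are computed from the counts and include no spread between mice or libraries. No molecular identifiers separate molecules from their PCR copies, so even the counting error may be understated. By level Mir221 ranked 35th of all genes in replicate 1 and 52nd in replicate 2. Mir222 ranked 51st and 110th. Neither gene had a count on the opposite strand in either library, and counting the strands together gave the same counts.

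**Figure D1:**
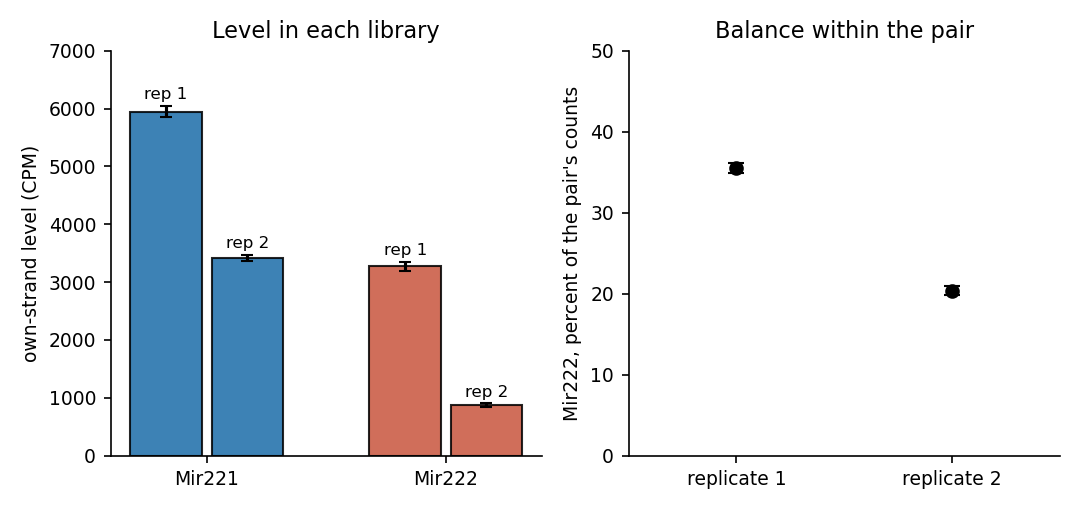
Left, own-strand level of Mir221 and Mir222 in CPM in each library, with exact 95% counting intervals; right, Mir222 as a percent of the counts of both genes, with the same kind of interval. Both genes were lower in replicate 2, and the share of Mir222 was 35.5% in replicate 1 and 20.4% in replicate 2.

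The size of the difference between libraries was unequal. Mir221 was 1.74-fold lower in replicate 2 (counting interval 1.70 to 1.78), a log2 ratio of log2(CPM + 1) of -0.80. Mir222 was 3.74-fold lower (3.60 to 3.89), a log2 ratio of -1.90. Their sum was 2.15-fold lower, 9219 CPM in replicate 1 and 4292 CPM in replicate 2. Among the 392 measured genes, 9 (2.30%) were over 2-fold lower in replicate 2 and Mir222 was one of them. Over 1.5-fold lower were 38 genes (9.69%), Mir221 and Mir222 included, and 67 (17.1%) were over 1.5-fold higher. The measured genes had a median log2 ratio of 0.06 and an SD of 0.67. A single measured gene, Mir26a-1, had a lower log2 ratio than Mir222, and 22 had a lower ratio than Mir221. Mir26a-1 is a numbered copy and did not reach 1000 counts in both libraries, so its ratio is uncertain. Among the 141 genes that reached 1000 counts in both libraries, where counting error is small, 3 (2.13%) were over 2-fold lower: Mir222, Mirlet7d and Mir31. There is 1 library per mouse, so mouse and library cannot be told apart in these differences, and there is no group comparison. The libraries also differed in unmapped reads, 31.6% in replicate 1 and 18.2% in replicate 2, whose part in these differences was not tested.

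Genes nearest to the members in log2(CPM + 1) over the 2 libraries put these values in context. For Mir221 they were Mir298, Mir98, Mir378a, Mir342 and Mir107, at distances of 0.38 to 0.57. Of these Mir298 was also lower in replicate 2, at 7542 and 3808 CPM (log2 ratio -0.99), and Mir107 stood at 4374 and 2657 CPM (log2 ratio -0.72). Mir98, a let-7 family gene on the X chromosome, had a log2 ratio of -0.24, and Mir378a and Mir342 had -0.05 and -0.04. For Mir222 no gene lay as near. The closest were Mir21a, Mir370, Mir760, Mir31 and Mirlet7c-2, at distances of 0.85 to 1.12. Mir21a, which promotes growth and is raised in many tumours, was at 1827 and 970.0 CPM (log2 ratio -0.91). Mir31 was at 1550.0 and 723 CPM (log2 ratio -1.10). All 5 neighbours of Mir222 were lower in replicate 2, and none by as much as Mir222. The neighbours of both members were chosen by these same 2 values. Ratios in the direction of the members thus follow largely from the choice. Likeness over 2 libraries is a position in a plane and carries little information on a shared pattern.

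**Figure D2:**
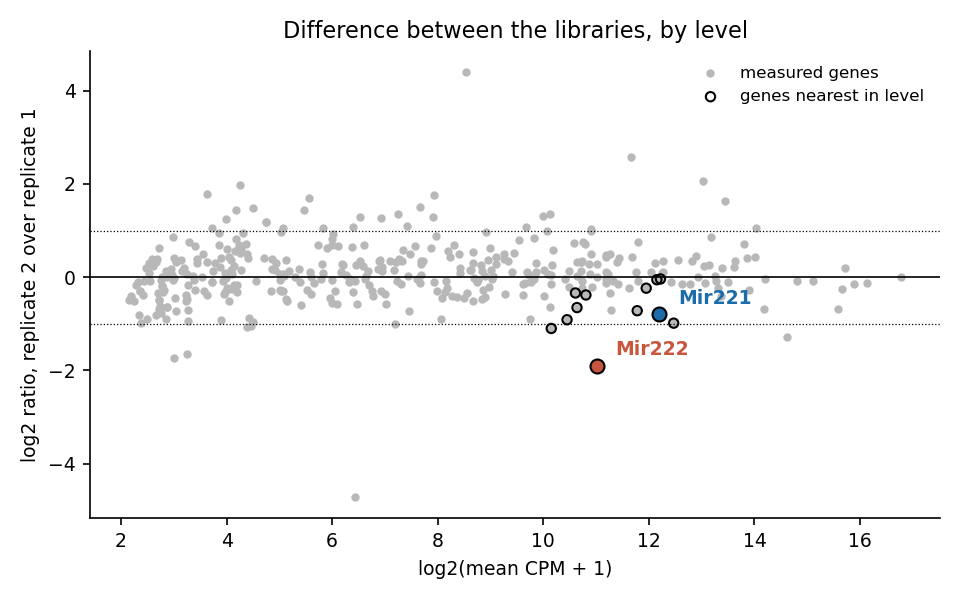
Log2 ratio of replicate 2 over replicate 1 against log2(mean CPM + 1) for the 392 measured genes (grey points); open circles are the 5 genes nearest in level to each member, and dotted lines mark 2-fold. Mir222 lies at -1.90, below the bulk of genes of its level, and Mir221 at -0.80 lies inside the 2-fold lines.

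Because both genes sit in each library, the ratio of Mir222 to Mir221 does not depend on library scaling. Mir222 stood at 0.550 times Mir221 in replicate 1 (counting interval 0.535 to 0.565) and at 0.256 times in replicate 2 (0.247 to 0.265). Mir222 thus made up 35.5% of the counts of the pair in replicate 1 and 20.4% in replicate 2. The change in log2(Mir222/Mir221) was -1.10, with a counting SE of 0.033.

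Other neighbouring miRNA genes gave the spread of this quantity. Measured genes that follow each other on the same strand with starts at most 10 kb apart formed 105 pairs of 147 genes, some of which stand in more than 1 pair. Their members, like Mir221 and Mir222, may come from a shared primary transcript. Of the other 104 pairs, 17 (16.3%) changed their balance by more than Mir222 and Mir221, and the median absolute log2 change was 0.56 (quartiles 0.25 and 0.87). The 5 pairs with the largest changes were Mir200b/Mir200a, Mir544/Mir382, Mir376c/Mir376b, Mir99b/Mirlet7e and Mir298/Mir296, each named with the upstream gene first. Mir200b and Mir200a had 51 and 17 counts in replicate 1 and 317 and 19 in replicate 2. Mir544 had 11 and 81 counts. Those changes carry counting SEs of 0.53 and 0.46. Better counted were Mir376c/Mir376b, whose ratio was 4.10 in replicate 1 and 0.854 in replicate 2, Mir99b/Mirlet7e, whose ratio was 0.110 and 0.484, and Mir298/Mir296, whose ratio was 14.4 and 3.43. A change of balance as large as that of Mir222 and Mir221 was thus not confined to them. Of the 105 pairs, 3 had both members over 1.5-fold lower in replicate 2, namely Mir222/Mir221, Mirlet7f-1/Mirlet7d and Mir669e/Mir669l. Mirlet7f-1 has near-identical copies, so its ratio is uncertain. Mir669e had only 44 and 41 counts, and Mir669l, at a log2 ratio of -0.60, lies close to the 1.5-fold limit, so that pair is uncertain too.

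**Figure D3:**
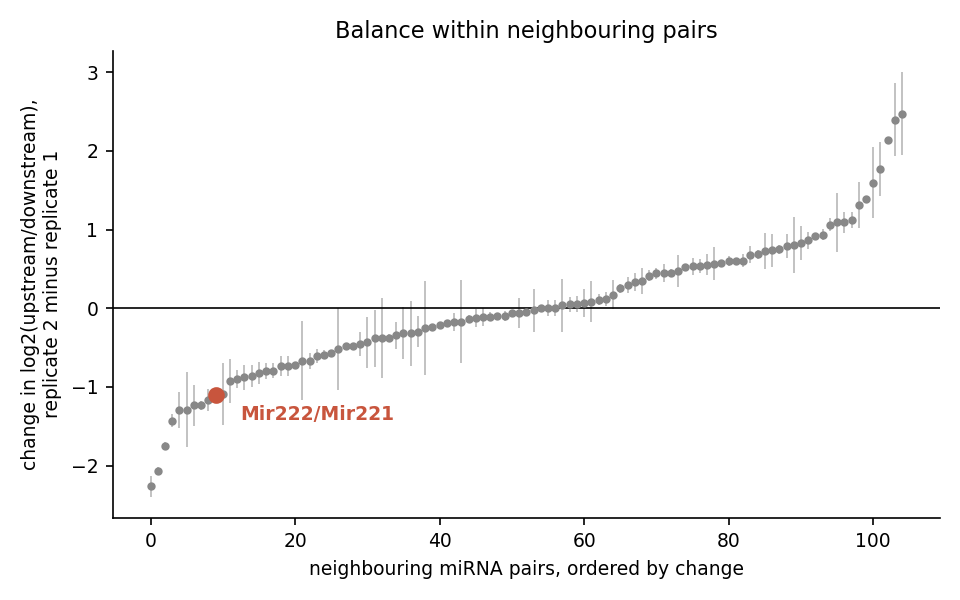
Change in log2(upstream/downstream) from replicate 1 to replicate 2 for the 105 neighbouring pairs of measured miRNA genes, ordered by the change, with bars of 1 counting SE. Mir222/Mir221, at -1.10, stands in the lower part of the range, and 17 of the other 104 pairs lie farther from 0.

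On the X chromosome 36 of 142 miRNA genes were measured. Mir221 was the second most abundant of them in replicate 1, after Mir652, and the fourth in replicate 2. Mir222 was the fifth and the eighth. Mir221 held 14.6% of the X-linked counts in replicate 1 and 10.2% in replicate 2, and Mir222 held 8.04% and 2.61%. The other X-linked genes summed to 31482 and 29215 CPM, 1.08-fold lower in replicate 2, against 2.15-fold for Mir221 and Mir222 together. Across the 36 measured X-linked genes the median log2 ratio was -0.07, and 21 were below 0, beside 176 of the 392 measured genes. Mir222 was the only one of the 36 over 2-fold lower, near the 2.30% of all measured genes. Over 2-fold higher were 2, Mir1298 and Mir1264, beside 29 (7.40%) of all measured genes. Over 1.5-fold lower were 3, Mir221, Mir222 and Mir501, a gene within an intron of Clcn5 (1112 and 601 CPM), and over 1.5-fold higher were 4, Mir1298, Mir1264, Mir188 and Mir504. All measured genes gave 9.69% lower and 17.1% higher at that limit, so the X-linked share that was lower is near the background. Mir652 stood at 11891 and 11132 CPM and Mir361 at 4034 and 4363 CPM. Among the 13 neighbouring pairs on this chromosome, Mir222/Mir221 had the largest change in balance, an absolute log2 change of 1.10. Mir764/Mir1264, with 36 to 162 counts a gene, came next at 1.09. That change carries a counting SE of 0.39, so the order of these pairs is not settled.

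**Figure D4:**
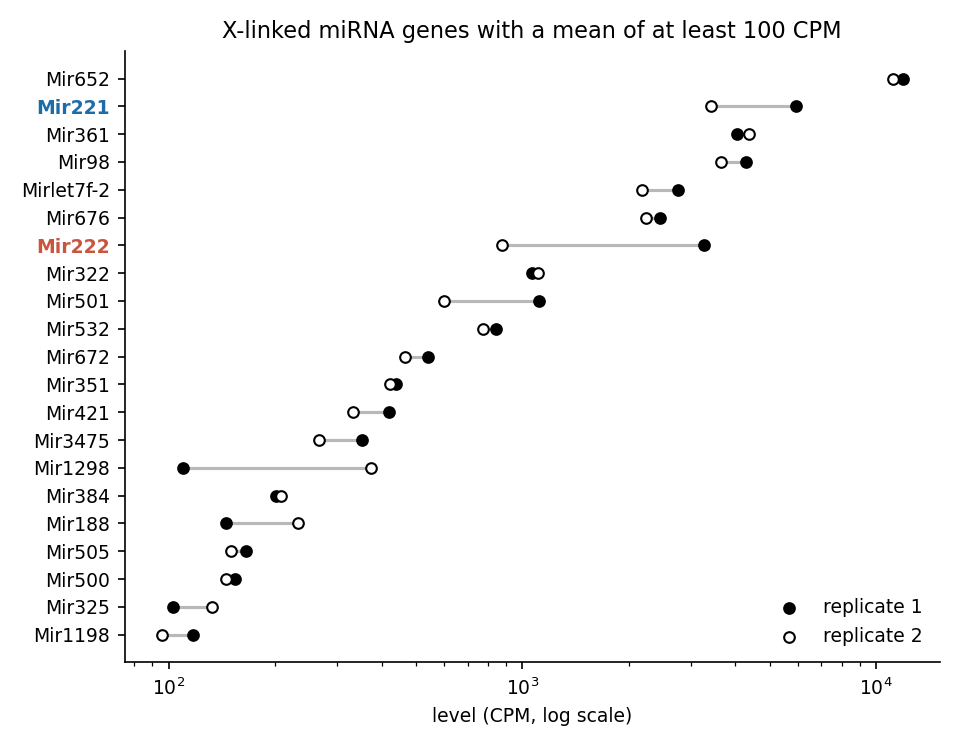
Level in CPM (log scale) of the 21 X-linked miRNA genes with a mean of at least 100 CPM, in replicate 1 (filled) and replicate 2 (open). Mir221 and Mir222 lie farther left in replicate 2, and Mir652 and Mir361, the most abundant beside them by mean level, lie at nearly the same level in both libraries.

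Lists of miRNAs tied to the known roles of the pair are described by their counts and medians, without a test. Blood vessels are a setting in which both miRNAs are well studied. In the endothelial and mural list 3 of 5 genes were measured and Mir126b and Mir145b were at 0. The list held 1.68% of counts in replicate 1 and 2.80% in replicate 2, a mean of 2.24% that was 0.622% when strands were counted together. Mir126b lies within Mir126a on the other strand, and its opposite-strand counts were 25752 and 100079. With strands together the reads of Mir126a thus fall in both genes, so the 0.622% is not a like measure of the list. The endothelial Mir126a was at 10782 and 22504 CPM, higher in replicate 2, where Mir221 and Mir222 were lower. The smooth-muscle miRNAs Mir143 (5660.3 and 5238 CPM) and Mir145a (312 and 268 CPM) had log2 ratios of -0.11 and -0.22. The part of these cells in the levels of Mir221 and Mir222 was not tested. In bulk tissue, fewer cells of a type and less RNA per cell cannot be told apart.

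Of 14 miRNAs associated with proliferation and glioma, 12 were measured. They had a median log2 ratio of -0.05, 6 were below 0, and the list held 0.735% and 0.551% of counts. Its most abundant members were Mir93 of the miR-106b cluster (1831 and 1560.0 CPM), Mir21a and Mir31. Mir31 was the only one over 2-fold lower (2.30% of all measured genes were). At 1.5-fold 2 were lower, Mir31 and Mir21a, and 2 were higher, Mir18 and Mir25, against 9.69% and 17.1% of all measured genes. Of 14 growth-restraining miRNAs 11 were measured, with a median log2 ratio of 0.34 and 4 below 0. Mir128-1 (10802 and 17606 CPM), Mir137 (6366 and 8063 CPM) and Mir128-2 (2779 and 3767 CPM) led that list, and all 3 were higher in replicate 2. Of the 11, 2 were over 1.5-fold higher, Mir128-1 and Mir181a-2, and 0 were over 1.5-fold lower. All measured genes gave 17.1% and 9.69%, and 11 genes are few to read a share from. The numbered copies share mature sequences, so their levels are uncertain.

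Among 5 activity- and neurotrophin-responsive miRNAs the median log2 ratio was -0.15, and 4 were below 0. Mir132, induced by neuronal activity, was at 60392 and 37793 CPM, and Mir212, from the same primary transcript, was at 1193 and 1075 CPM. Of the 5, Mir132 and Mir21a were over 1.5-fold lower in replicate 2, beside 9.69% of all measured genes, and the list is too short to read a share from. The 5 genes of microglia and white blood cells were led by Mir150 (1358 and 1496 CPM), Mir146 (793 and 855 CPM) and Mir142 (74.9 and 77.6 CPM). They had a median log2 ratio of 0.11, and none was over 1.5-fold lower or higher, a count of little weight for 5 genes when all measured genes gave 9.69% and 17.1%. The list held 0.231% of counts in replicate 1 and 0.249% in replicate 2.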

How the data were processed

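Raw read counts per miRNA gene were deposited by the authors, who used mm10 and GENCODE M21, per the readme text. Aligner and counter were not given in the sources used here. Columns carry no names. From the values, the columns were read as counts of both strands together, of the gene's own strand and of the opposite strand, and own-strand counts were used. The 4 entries that name no gene were left out of totals. Reads that match several loci were 48.6% and 52.8% of mapped reads in replicates 1 and 2. All 2202 identifiers matched GENCODE M21.

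CPM was computed from own-strand totals, and log2 ratios used a pseudocount of 1 CPM. With 1 group there was no contrast for edgeR's quasi-likelihood test, and no significance test was made on the deposited counts. edgeR 4.0.16 and DESeq2 1.42.0 (R 4.3.3) gave alternative scaling. Hairpins were folded with ViennaRNA 2.7.2. SciPy 1.17.1 gave exact intervals. The code for fold calls and pair changes was tested on simulated counts.

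The members and lists were chosen with earlier results of these data known. Genes named were both members, genes with their seed, the 5 measured genes nearest to each in log2(CPM + 1), the 5 neighbouring pairs with the largest change, and the 3 most abundant genes of each list. Others named to make up a count, or for context on the X chromosome, in the tissue check or among vascular genes, were chosen after their values were seen. Listed symbols were matched as written or by their form in GENCODE M21 (Mir124a-1 for Mir124-1). Alternatives were TMM and DESeq2 scaling, other totals, count minimums, pseudocounts, fold and distance limits, both strands together, and lists without numbered copies.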

Additional observations from a re-analysis of the deposited data

How the results depend on the processing

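Mir221 and Mir222 stayed lower in replicate 2 under each scaling tried. Their log2 ratios were -0.86 and -1.96 with TMM, and -0.87 and -1.97 with DESeq2, which lowered the median of all measured genes by less than 0.1. Mean levels without 1 replicate ran from 3418 to 5948 CPM for Mir221 and from 874 to 3270.4 CPM for Mir222. The ratio of Mir222 to Mir221 was the same with both strands together. Measured genes over 2-fold lower in replicate 2 numbered 26 at a count minimum of 1, 4 at 100, 3 at 1000 (a minimum added after seeing the data), and 14 with a pseudocount of 0.1. Over 1.5-fold they were 38 and over 3-fold 4. Genes over 2-fold higher numbered 49, 16 and 8 at those minimums, and 67 and 8 at the 1.5-fold and 3-fold limits. Fewer genes are tested at a higher minimum, namely 613, 242 and 141 at minimums of 1, 100 and 1000, beside 392 in the main setting. Neighbouring pairs with a larger change than Mir222/Mir221 ran from 12 of 80 (15.0%) to 23 of 124 (18.5%) under the planned settings. At the added minimum of 1000 they were 6 of 41 (14.6%). The mean endothelial and mural share was 2.24%, and 0.622% with both strands together, where the reads of Mir126a also fall in Mir126b. The growth-restraining share was 3.26%, and 1.12% without numbered copies. The microglial share was 0.240%, and 0.270% without the most abundant gene in the total. A smaller total raises every share, that of the X-linked genes from 3.71% to 4.18%. Causes beyond these counting rules were not tested. No paired analysis was possible because the labels give 1 group. With 2 libraries, no spread beyond that between these mice can be given.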
